A study of Arabidopsis thaliana with 18 samples.

Results

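OSM34, AT1G26390 and AT5G24240 are 3 Arabidopsis genes whose transcripts were high in wild type rosettes kept at low oxygen. In oxygen-starved rosettes of a pair of transgenic lines, with constructs named for RAP2.12, the 3 genes were low or at the background. They were selected on those levels under hypoxia, and each is read by 1 probe set of 22746 tested. Their hypoxia levels are therefore given as a description without a test, and only their levels in air were tested between genotypes. Transcripts were measured on 18 arrays of whole rosettes of Columbia-0 plants aged 5 weeks, with 3 arrays in each of 6 groups. The genotypes were wild type, a 35S::HA::RAP2.12 line (called HA-RAP2.12) and a line expressing the artificial microRNA construct 35S::amiRAP2.2-12 (called amiRAP2.2-12). Each spent 1.5 h in darkness, at 22 °C, with either 21% oxygen (air) or 1% oxygen (hypoxia). Both constructs carry the 35S promoter, which is active in most plant tissues. The labels do not say how many independent transformants were used or whether replicates were separate plants, so p-values measure only the spread between these samples. In whole rosettes, fewer cells of a type and less RNA per cell cannot be told apart.

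RAP2.12 and RAP2.2 belong to group VII of the ethylene response factors, which oxygen destabilises through their N-terminus and which switch on fermentation and other low-oxygen genes when oxygen runs short. OSM34 encodes an osmotin-like protein of the thaumatin family. Osmotins were first described in salt-adapted tobacco cells, and family members are known as pathogenesis-related proteins with activity against fungi. AT1G26390 encodes a berberine bridge enzyme-like protein, a family of flavin-dependent oxidases that includes enzymes of plant defence. AT5G24240 belongs to the gamma type of phosphatidylinositol 4-kinases, proteins with a kinase domain and, in many members, ubiquitin-like repeats.

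The lowest value was 2.109 on the log2 scale, and 35.4% of values lay under 2.5, a level called the floor here. The annotation gave no single-gene probe set for RAP2.12 or RAP2.2, so their levels were not analysed here. Green leaf markers (3 of 6 measured) averaged between 11.24 and 11.43 on the wild type hypoxia arrays and between 11.97 and 12.45 on the others. LHCB4.3, an antenna protein gene of photosystem II, carried most of that gap, with 7.66 to 7.98 in wild type hypoxia against 9.39 to 10.56 on the others. SBPASE was at 13.01 to 13.14 against 13.28 to 13.54, and PRK, at 13.06 to 13.20, overlapped the hypoxia arrays of both lines. The part of this difference in the levels of the 3 genes was not tested. Of 10 root markers 3 were measured, and AT4G11290 and EXPA7 were at the floor in group mean throughout, while PYK10, a root beta-glucosidase, was well above it. No flower or seed marker was measured, and the 1 measured senescence marker of 5, SAG29, stood at 2.109 on every array. The array HA-RAP2.12 air replicate 1 deviated from its group mean together with HA-RAP2.12 hypoxia replicate 1 and with replicate 2 of amiRAP2.2-12 in air and under hypoxia, with correlations of 0.24 to 0.63 between these 4 arrays over 10988 brighter probe sets.

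OSM34 was the only 1 of the 3 genes above 3 on the log2 scale in wild type air. It stood at 6.02, 6.16 and 5.24 on the wild type air arrays and at 8.00, 8.21 and 8.24 on the wild type hypoxia arrays, a mean of 5.81 ± 0.49 against 8.15 ± 0.13 (SD, n = 3 each). The wild type groups did not overlap, and their means differed by 2.34 on the log2 scale. In HA-RAP2.12 the values were 6.25, 3.98 and 3.64 in air and 3.64, 4.96 and 6.10 under hypoxia, so air and hypoxia overlapped and their means differed by 0.28. In amiRAP2.2-12 they were 3.33, 2.57 and 2.13 in air and 3.78, 2.48 and 2.31 under hypoxia, again with overlap and with a difference of 0.18. The level under hypoxia thus lay 3.25 below wild type in HA-RAP2.12 and 5.29 below it in amiRAP2.2-12, on the log2 scale, and those differences helped to choose the gene. Of the amiRAP2.2-12 arrays 1 of 3 in air and 2 of 3 under hypoxia lay under the floor, so the differences of this line from wild type are limited by it.

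**Figure D1:**
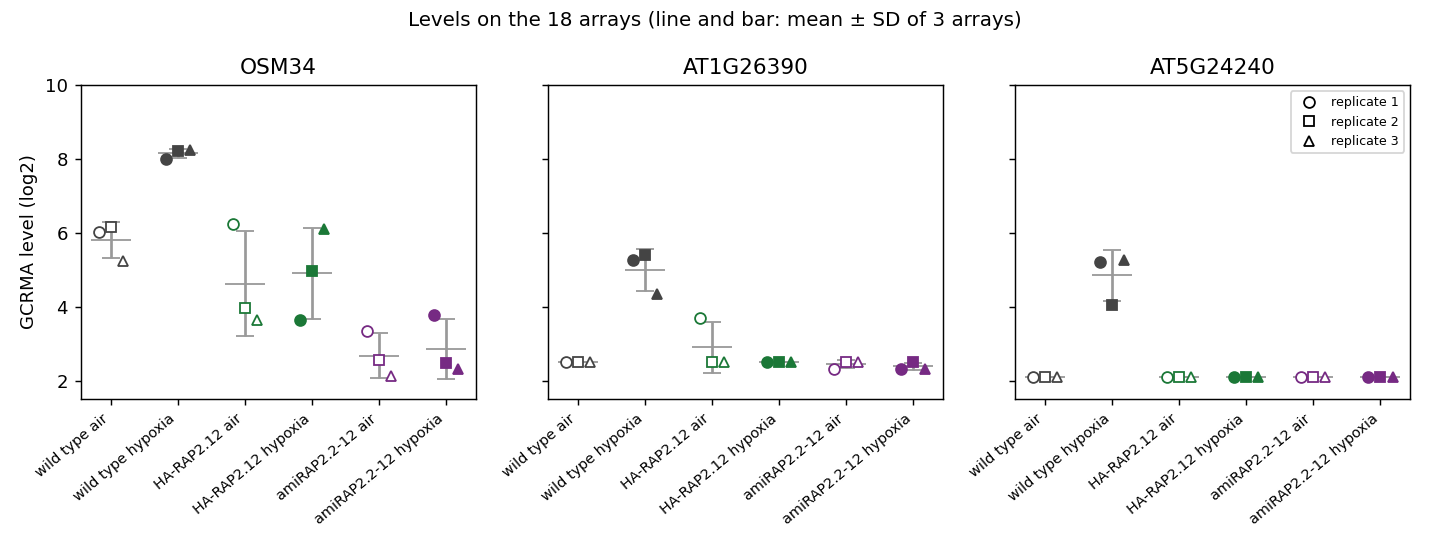
GCRMA level (log2, vertical axis) of OSM34, AT1G26390 and AT5G24240 on each of the 18 arrays by group, open symbols for air and filled for hypoxia, with the mean ± SD of 3 arrays in grey. Wild type hypoxia lies above every other array for all 3 genes; among the other 15 arrays OSM34 ranges from 2.13 to 6.25, and AT1G26390 reaches 3.69 on 1 HA-RAP2.12 air array.

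The order of the group means of OSM34 was wild type hypoxia (8.15), wild type air (5.81), HA-RAP2.12 hypoxia (4.90 ± 1.23), HA-RAP2.12 air (4.62 ± 1.42), amiRAP2.2-12 hypoxia (2.86 ± 0.81) and amiRAP2.2-12 air (2.68 ± 0.61; SD, n = 3 each). Among neighbours in that order, wild type hypoxia stood clear of wild type air beyond their spread, whereas wild type air overlapped HA-RAP2.12 hypoxia and the air and hypoxia groups of each line overlapped each other. The lowest HA-RAP2.12 air array (3.64) and the highest amiRAP2.2-12 hypoxia array (3.78) overlapped as well. The same value, 3.64, stood on HA-RAP2.12 air replicate 3 and HA-RAP2.12 hypoxia replicate 1.

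In air, where the question was whether the genotypes differed without low oxygen, none of the 3 genes passed the threshold in any of 3 comparisons. AT5G24240 stood at 2.109 on every air array and AT1G26390 at 2.504 on most. Their tests could therefore not show a lower level in a line, and only OSM34 was well above background in wild type air. Limma was fitted to all 22746 probe sets and 18 arrays with Benjamini-Hochberg adjustment, at a threshold of 0.05. OSM34 showed the widest gap: it was 3.13 lower in amiRAP2.2-12 than in wild type (log2 difference -3.13, SE 0.72, 95% interval -4.69 to -1.57), lower on 3 of 3 arrays without overlap, with unadjusted p = 0.000851 and adjusted p = 0.187 in limma. An exact two-sided permutation test gave p = 0.1, the smallest that 3 arrays against 3 allow. Only 3 probe sets (0.0132% of all) passed in that comparison, and 1768 had an unadjusted p under 0.05. The adjusted p over the 26 alternatives tried ran from 0.0414 to 0.458, and the lowest, with array weights, was the only 1 under the threshold.

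OSM34 in HA-RAP2.12 air lay below wild type by a log2 difference of -1.18 (SE 0.72, 95% interval -2.74 to 0.37, limma adjusted p = 0.685), in a comparison where 0.536% of probe sets passed. The 3 arrays of that group were far apart. Replicate 1, at 6.25, was above every wild type air array, and replicates 2 and 3 were below all of them. Without replicate 1 the difference was -1.997 (adjusted p = 0.258), and without the 4 arrays that deviated together it was the same (adjusted p = 0.110). Between the lines in air, OSM34 was higher in HA-RAP2.12 by 1.95 (SE 0.72, 95% interval 0.39 to 3.50, limma adjusted p = 0.498) without overlap of the arrays, where 0.185% of probe sets passed, and by 1.13 without HA-RAP2.12 air replicate 1.

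In air the root marker PYK10 was highest in group mean in amiRAP2.2-12, where OSM34 was lowest. PYK10 was at 7.84, 7.93 and 7.91 in wild type, at 7.72, 7.81 and 7.88 in HA-RAP2.12 and at 8.76, 8.27 and 7.76 in amiRAP2.2-12. Within amiRAP2.2-12 air both genes fell from replicate 1 to replicate 3. Under hypoxia PYK10 was at 8.74, 8.68 and 8.55 in wild type, at 5.10, 8.10 and 7.37 in HA-RAP2.12 and at 8.21, 3.85 and 6.76 in amiRAP2.2-12. PYK10 and OSM34 were both lowest on replicate 1 among the HA-RAP2.12 hypoxia arrays. In amiRAP2.2-12 hypoxia both were highest on replicate 1. OSM34 lay under the floor on replicates 2 and 3 there, so those arrays are not ranked for it. The arrays with the lowest PYK10 were HA-RAP2.12 hypoxia replicate 1 and amiRAP2.2-12 hypoxia replicate 2. Both belong to the 4 arrays that deviated together over the brighter probe sets. The part of that deviation in the PYK10 and OSM34 values was not tested. The mean of the 3 measured root markers ranged from 4.31 to 4.49 in wild type hypoxia, from 3.14 to 4.19 in HA-RAP2.12 hypoxia and from 2.71 to 4.18 in amiRAP2.2-12 hypoxia. The part of root markers in the levels of OSM34, in air or under hypoxia, was not tested.

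AT1G26390 was at 2.504 on all 3 wild type air arrays and at 5.26, 5.39 and 4.35 under hypoxia (5.00 ± 0.57, SD, n = 3), a difference of 2.498 on the log2 scale. All 3 HA-RAP2.12 hypoxia arrays stood at 2.504, and the amiRAP2.2-12 hypoxia arrays stood at 2.32, 2.504 and 2.32. The value 2.504 was shared by 11 of the 18 arrays, and the wild type hypoxia arrays overlapped no other group. The exception outside wild type hypoxia was HA-RAP2.12 air replicate 1, at 3.69, while replicates 2 and 3 of that group stood at 2.504. In air the log2 difference from wild type was 0.40 in HA-RAP2.12 (SE 0.30, limma adjusted p = 0.8004) and -0.06 in amiRAP2.2-12 (SE 0.30, limma adjusted p = 1). The first rests on that single array and was 0 without it.

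AT5G24240 was at 2.109, the lowest value of the data set, on 15 of 18 arrays. The other 3 were the wild type hypoxia arrays, at 5.21, 4.05 and 5.27 (4.85 ± 0.69, SD, n = 3), which gave a difference of 2.74 from each other group, a size set by the floor value of those groups. In air every array had the same value, so the log2 difference between genotypes was 0 in all 3 comparisons (limma adjusted p = 1). Its SE of 0.23 there came from the wild type hypoxia arrays and the prior alone. Values at the floor have no order, so these arrays do not rank the other 5 groups. In the TAIR10.1 gene table the gene overlaps its neighbour AT5G24230, whose own probe set was at 2.109 on every array.

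The separation of wild type hypoxia from all other arrays was measured for every probe set as the lowest wild type hypoxia value minus the highest of the other 15, a description that restates the choice of the genes. This gap was above 0 for 698 probe sets, of which 391 named 1 gene. AT5G24240 was at rank 2 with a gap of 1.94, OSM34 at rank 3 with 1.75 and AT1G26390 at rank 23 with 0.66. The gap of AT5G24240, and with it its place before OSM34, is set by the lowest value of the data, where its other 15 arrays stood, so these 2 ranks carry no order between the genes. The probe set at rank 1, with 2.18, had no gene listed. For AT1G26390 the array that narrowed the gap was HA-RAP2.12 air replicate 1.

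**Figure D2:**
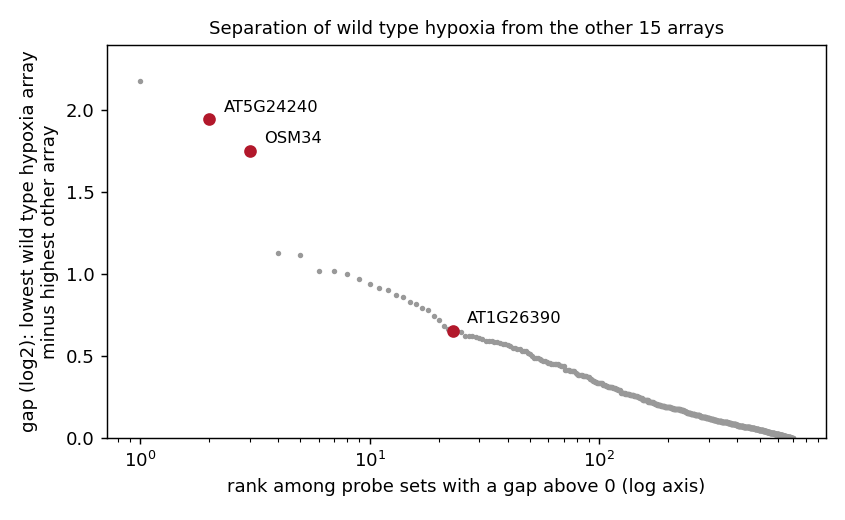
Gap between the lowest wild type hypoxia array and the highest of the other 15 arrays (log2, vertical axis) against rank on a log axis, for the 698 probe sets with a gap above 0. AT5G24240 (1.94) and OSM34 (1.75) sit apart from the next probe set at 1.13, and AT1G26390 (0.66) lies within the main run.

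The genes whose levels followed OSM34 most closely over the 18 arrays were found by Pearson correlation among 1464 single-gene probe sets with an SD of at least 0.5. They were AT4G12490 (r = 0.854), AT2G37750 (r = 0.854), THI2.2 (r = 0.828), AT4G12500 (r = 0.802) and CCOAMT (r = 0.751). AT4G12490 and AT4G12500 encode lipid transfer protein-like proteins, THI2.2 a thionin, a small antimicrobial peptide, and CCOAMT an enzyme named for methylating caffeoyl-CoA. These values are descriptions over arrays that share their groups. Over the 15 arrays without wild type hypoxia, r was 0.805 for AT4G12490, 0.631 for AT2G37750, 0.596 for THI2.2, 0.627 for AT4G12500 and 0.643 for CCOAMT.

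In wild type AT4G12490 stood at 6.38 ± 0.13 in air and 7.65 ± 0.10 under hypoxia, and at 3.35 ± 0.58 and 3.59 ± 0.94 in amiRAP2.2-12 (SD, n = 3 each). In HA-RAP2.12 air it was at 9.03 on replicate 1, against a group mean of 5.69 ± 2.98 (SD, n = 3). AT4G12500 showed the same array high, at 4.95 with a group mean of 3.09 ± 1.61 (SD, n = 3). OSM34, AT1G26390, AT4G12490 and AT4G12500 were thus all highest within their HA-RAP2.12 air group on replicate 1. AT2G37750 was also highest there, by a smaller margin, with 8.16 on that array and 7.61 ± 0.48 (SD, n = 3) for the group. CCOAMT and THI2.2 were highest on it too, at 6.71 and 8.75, though THI2.2 was at 8.71 on replicate 3. AT4G12490, AT4G12500, AT2G37750, CCOAMT and THI2.2 were picked for following OSM34 over all arrays, this array included. Their high levels on it therefore restate that choice in part. The array is 1 of the 4 that deviated together over the brighter probe sets.

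**Figure D3:**
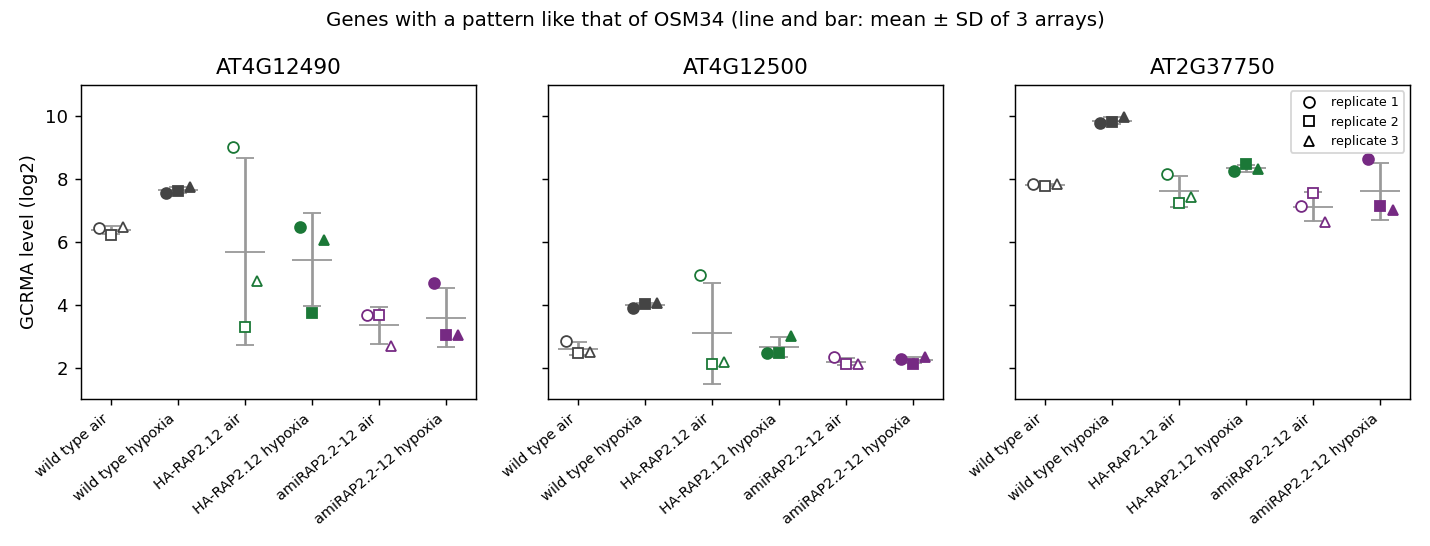
GCRMA level (log2, vertical axis) of 3 of the genes with a pattern most like that of OSM34, on each array by group, open symbols for air and filled for hypoxia, with the mean ± SD of 3 arrays in grey. AT4G12490 and AT4G12500 were at 9.03 and 4.95 on HA-RAP2.12 air replicate 1, far above the other arrays of that group.

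For AT1G26390 the genes most alike were AT4G33550 (r = 0.827), AT2G34200 (r = 0.817), AT4G30470 (r = 0.816), AR791 (r = 0.814) and AT2G37750 (r = 0.812). For AT5G24240 they were AR791 (r = 0.887), AT5G16980 (r = 0.864), the small heat shock protein gene AT1G53540 (r = 0.858), AT2G17300 (r = 0.854) and the peroxidase gene Prx37 (r = 0.847). With AT5G24240 at 1 value on 15 arrays, its correlations rest on the wild type hypoxia arrays. For AT1G26390, r over the 15 arrays without wild type hypoxia lay between -0.29 and 0.33 for its 5 genes. AR791, shared by both lists, was at 4.74 in wild type hypoxia, at 3.59 ± 0.06 in HA-RAP2.12 hypoxia and at 3.75 ± 0.18 in amiRAP2.2-12 hypoxia, while wild type air was at 3.17 ± 0.13 (SD, n = 3 each).

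The relatives of the 3 genes and genes of related defence and osmotic stress pathways were then examined, 51 measured genes in all. In wild type, 9 of them rose and 2 fell under hypoxia, 21.6% against 21.8% of all probe sets (11.5% rose and 10.3% fell). In HA-RAP2.12 11 passed (21.6% against 19.4%) and in amiRAP2.2-12 6 (11.8% against 16.3%). Under hypoxia 2 were higher and 2 lower in HA-RAP2.12 than in wild type (7.84% against 4.67% of all, of which 2.09% higher and 2.58% lower), and 1 was lower in amiRAP2.2-12 (1.96% against 1.42%, of which 0.813% lower). Between the lines under hypoxia 2 were higher in HA-RAP2.12, AT4G36010 and AT1G30700, where 1.01% of all probe sets passed. The AT4G36010 call was lost without any 1 of 12 of the 18 arrays (limma adjusted p up to 0.175). It was also lost without the 4 arrays that deviated together, and both calls were lost with only the arrays compared. In air none of the 51 passed in limma in the 3 comparisons, and 4, 2 and 3 had an unadjusted p under 0.05 in HA-RAP2.12 against wild type, amiRAP2.2-12 against wild type and HA-RAP2.12 against amiRAP2.2-12. The hypoxia response of none of the 51 differed from that of wild type by limma's interaction test, with 8 at an unadjusted p under 0.05 in HA-RAP2.12 and 4 in amiRAP2.2-12. In those interaction tests 1.62% and 0.176% of all probe sets passed.

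Some berberine bridge enzyme-like relatives of AT1G26390, among them its neighbours AT1G26380 and AT1G26420, rose under hypoxia in all 3 genotypes. Of 21 measured relatives, 12 were at the floor in every group. In wild type 4 rose and none fell (median difference 0.01, against 0 for all probe sets), where 11.5% of all probe sets rose. In HA-RAP2.12 5 rose and none fell, where 10.4% of all probe sets rose, and in amiRAP2.2-12 3 rose and none fell, where 8.04% rose. AT1G26390 lies in the TAIR10.1 gene table in a row of such genes, with AT1G26380 on one side and AT1G26400, AT1G26410 and AT1G26420 on the other. AT1G26400 and AT1G26410 lay between 2.109 and 2.16 on every array.

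AT1G26380, an oxidase of indolic defence compounds, was at 6.29, 6.34 and 6.46 in wild type hypoxia and at 8.78, 8.55 and 8.67 in HA-RAP2.12 hypoxia, where AT1G26390 was at 2.504 on each. In amiRAP2.2-12 hypoxia it was at 4.35, 6.74 and 6.36. It rose under hypoxia by 4.97 (SE 0.64, limma adjusted p = 0.000114) in HA-RAP2.12 and by 2.74 (SE 0.64, limma adjusted p = 0.0110) in amiRAP2.2-12. In wild type it rose by 1.93 (SE 0.64, limma adjusted p = 0.0484), a call that was lost without any one of 14 of the 18 arrays, with adjusted p up to 0.150, and also with quantile normalization and with the replicate block. In amiRAP2.2-12 the calls of AT1G26380, AT1G26420 and AT4G20830 were lost with only the arrays compared. Its hypoxia response was larger in HA-RAP2.12 than in wild type by 3.04 (SE 0.91) without passing (limma adjusted p = 0.143). AT1G26420 rose by 1.77 in wild type (limma adjusted p = 0.0251), by 3.72 in HA-RAP2.12 (0.000191) and by 2.53 in amiRAP2.2-12 (0.00449), with an SE of 0.51 each. Its wild type call did not hold when replicate 1 or 3 of wild type air or any 1 wild type hypoxia array was left out (adjusted p up to 0.0825).

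The oligosaccharide oxidase genes AT4G20830 and AT4G20860 rose by 1.26 (SE 0.21) and 1.72 (SE 0.44) in wild type, and in HA-RAP2.12 by 2.09 (SE 0.21) and 2.72 (SE 0.44). AT4G20830 also rose in amiRAP2.2-12, by 1.35 (SE 0.21). AT1G30700 was the only relative of this family that passed between a line and wild type under hypoxia. It was at 3.94 ± 0.66 in HA-RAP2.12 against 2.57 ± 0.36 in wild type (SD, n = 3 each), a difference of 1.37 (SE 0.26, limma adjusted p = 0.0103). That call was lost without HA-RAP2.12 hypoxia replicate 3 (adjusted p = 0.0544) and with only the arrays compared. AT1G26380 did not pass there, although its arrays did not overlap, with 8.55 to 8.78 in HA-RAP2.12 hypoxia and 6.29 to 6.46 in wild type hypoxia.

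**Figure D4:**
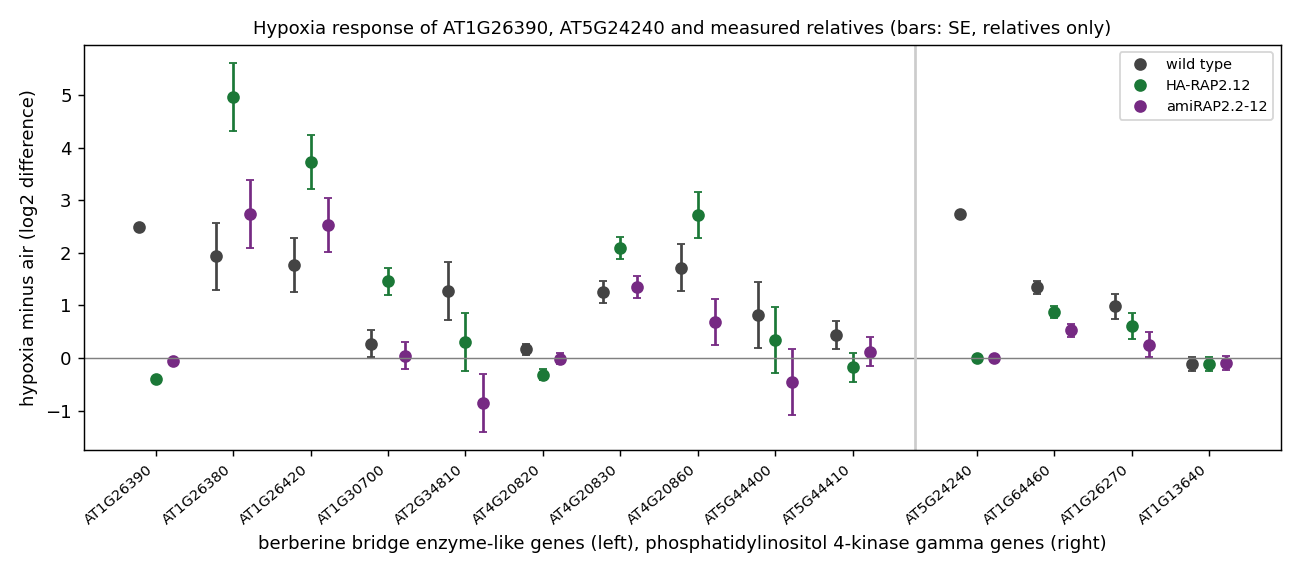
Hypoxia minus air (log2 difference, vertical axis) in wild type, HA-RAP2.12 and amiRAP2.2-12 for AT1G26390 and AT5G24240 and for their measured relatives with a group mean of at least log2 2.5, with SE bars for the relatives only. AT1G26390 and AT5G24240 lie at 2.498 and 2.74 in wild type and between -0.40 and 0 in the lines, whereas AT1G26380, AT1G26420 and AT4G20830 rise in all 3 genotypes.

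Among phosphatidylinositol 4-kinase gamma genes, 4 relatives of AT5G24240 were measured, 1 of them at the floor throughout. AT1G64460 and AT1G26270 rose in wild type, and none fell (median difference 0.49), where 11.5% of all probe sets rose. AT1G64460 was at 5.00, 4.84 and 5.16 in wild type air and at 6.29, 6.43 and 6.29 in wild type hypoxia, a rise of 1.34 (SE 0.12, limma adjusted p = 4.57e-06). Under hypoxia it was at 5.78, 5.67 and 5.98 in HA-RAP2.12 and at 5.68, 5.43 and 5.34 in amiRAP2.2-12, all below the wild type hypoxia arrays. It was lower than in wild type by a log2 difference of -0.53 (SE 0.12, limma adjusted p = 0.0245) in HA-RAP2.12 and of -0.86 (SE 0.12, limma adjusted p = 0.00498) in amiRAP2.2-12, although it still rose in both lines, with log2 differences between hypoxia and air of 0.87 (SE 0.12) and 0.53 (SE 0.12). The smaller rise lost its call with arrayWeights and with only the arrays compared.

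The HA-RAP2.12 call of AT1G64460 was lost without any 1 of the wild type hypoxia arrays or without replicate 1 or 2 of HA-RAP2.12 hypoxia (adjusted p up to 0.0947), without the 4 arrays that deviated together and with only the arrays compared, which also ended the amiRAP2.2-12 call. The interaction tests of AT1G64460 gave -0.47 (SE 0.17, limma adjusted p = 0.246) in HA-RAP2.12 and -0.82 (SE 0.17, limma adjusted p = 0.0912) in amiRAP2.2-12. AT1G26270 rose by 0.98 (SE 0.24, limma adjusted p = 0.00971) in wild type, and AT1G13640 differed by -0.11 (SE 0.13) without passing.

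Of 18 measured thaumatin-like relatives of OSM34, 6 were at the floor in every group. In wild type AT5G24620 rose by 0.76 (SE 0.20), and AT1G75800 and AT1G19320 fell, with log2 differences of -0.81 (SE 0.05) and -1.201 (SE 0.36). The list median was 0, and of all probe sets 11.5% rose and 10.3% fell in wild type. The wild type call of AT5G24620 was lost without wild type air replicate 1 (adjusted p = 0.0546). That of AT1G19320 was lost when replicate 1 of wild type air, or replicate 1 or 2 of wild type hypoxia, was left out (adjusted p up to 0.134), with the replicate block and with only the arrays compared. AT1G75800 also fell in HA-RAP2.12 (-0.93, limma adjusted p = 1.93e-07) and in amiRAP2.2-12 (-0.83, limma adjusted p = 7.72e-07). In HA-RAP2.12 AT4G36010 rose by 1.84 (limma adjusted p = 0.0007) and AT5G24620 by 0.69 (limma adjusted p = 0.0256). The latter call was lost without any 1 of 5 arrays and with only the arrays compared. In HA-RAP2.12 hypoxia AT4G36010 was higher than in wild type by 1.17 (SE 0.30, limma adjusted p = 0.0450) and AT1G75800 lower by a log2 difference of -0.21 (SE 0.05, limma adjusted p = 0.0460). Each of these calls was lost without any one of 13 of the 18 arrays (adjusted p up to 0.169). No thaumatin-like relative passed between amiRAP2.2-12 and wild type under hypoxia in limma.

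Few genes of the pathways were measured, 2 of 16 for salicylic acid, 1 of 16 for indolic compounds, 3 of 12 for jasmonate and ethylene defence, and 2 of 18 for osmotic stress and abscisic acid. GRX480, a glutaredoxin induced by salicylic acid, rose in wild type by 4.16 (SE 0.54) and in HA-RAP2.12 by 4.05 (SE 0.54). In amiRAP2.2-12 it rose by 1.85 (SE 0.54, limma adjusted p = 0.0346), a call lost without amiRAP2.2-12 air replicate 3 or amiRAP2.2-12 hypoxia replicate 2 or 3 (adjusted p up to 0.120), without the 4 arrays that deviated together and with only the arrays compared. COR47, a dehydrin, rose in wild type by 0.93 (SE 0.25, limma adjusted p = 0.0163), a call that ended when replicate 1 or 2 of wild type air or replicate 1 of wild type hypoxia was left out (adjusted p up to 0.0522). None of these 8 genes passed between a line and wild type under hypoxia in limma.

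As a reference for the response to oxygen itself, 15 of 29 listed low-oxygen genes were measured. All 15 rose under hypoxia in wild type (median 6.84), 14 in HA-RAP2.12 (median 3.48) and 15 in amiRAP2.2-12 (median 3.69), and none fell. Of all probe sets 11.5%, 10.4% and 8.04% rose in these genotypes. The levels in air were not alike: 7 of the 15 were higher in HA-RAP2.12 than in wild type (median difference 1.74) and none in amiRAP2.2-12 (median -0.08). Of all probe sets 0.536% and 0.0132% passed in these comparisons. Under hypoxia 3 were lower than in wild type in HA-RAP2.12 and 3 in amiRAP2.2-12, where 2.58% and 0.813% of all were lower. By the interaction test the response of 5 was smaller in HA-RAP2.12 than in wild type and of none in amiRAP2.2-12. There 1.62% and 0.176% of all passed. The mean level of the 15 genes was 5.44 to 5.53 in wild type air, 7.18 to 7.53 in HA-RAP2.12 air and 5.25 to 5.51 in amiRAP2.2-12 air. Under hypoxia it was 11.35 to 11.47 in wild type and 10.65 to 10.78 in HA-RAP2.12. In amiRAP2.2-12 hypoxia it was 11.14 on replicate 1 and 8.96 and 9.27 on replicates 2 and 3, so the first lay near wild type and apart from the other 2. On that first array OSM34 was at 3.78, AT1G26390 at 2.32 and AT5G24240 at 2.109, all below every wild type hypoxia array. Those levels helped to choose the genes, so their place below wild type is a description only. Beside these list values, the differences between hypoxia and air in HA-RAP2.12 were 0.28 for OSM34, -0.40 for AT1G26390 and 0 for AT5G24240. In amiRAP2.2-12 they were 0.18, -0.06 and 0. These comparisons share air and hypoxia arrays with each other, and the difference from the low-oxygen genes was not tested.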

How the data were processed

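The authors deposited 1 log2 value per probe set and array. The tool was GCRMA, per the submitters' processing notes, with no version named. GCRMA removes background, equalises arrays and summarises probes, so dim probe sets share a floor and differences against it depend on the background step. Of 22810 probe sets, 64 controls were left out. Of the 22746 tested, 13513 named 1 gene, 503 several, and 8730 were not listed; 13436 were renamed through the TAIR10.1 gene table. Precision is limited by how many arrays there were.

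A group-means model over the 18 arrays was fitted in limma 3.58.1 (R 4.3.3, lmFit and eBayes), two-sided. P-values were adjusted by Benjamini-Hochberg across the 22746 probe sets, calls were made at 0.05, and the fit was tested on simulated data. Each list gene was taken by its brightest single-gene probe set. Lists are described by counts and medians. The 3 genes and all lists were chosen with earlier results of these data known. Named genes were the 3 genes, relatives, up to 4 genes per pathway list by adjusted p, and the 5 most correlated genes per gene. Relatives at the floor or without a call are mostly given as counts. No batch label was given. Plots used matplotlib 3.10.9 under Python 3.11.15. Promoter and protein sequences were not used here. Alternatives were quantile normalization, median centring, a filter keeping the 13697 probe sets that passed log2 4 on 3 or more arrays, trended robust eBayes, arrayWeights, only the arrays compared, a replicate block, all probe sets of a gene averaged and each array left out; a fit without the 4 arrays that deviate together and a block within genotype were chosen after seeing the data.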

Additional observations from a re-analysis of the deposited data

How the results depend on the processing

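Under the 26 alternatives the air differences of OSM34 kept their sign, those of AT1G26390 kept it or were 0, and those of AT5G24240 lay between -0.03 and 0.03. The only change of call was OSM34 in amiRAP2.2-12 against wild type, at -3.25 (adjusted p = 0.0414) with arrayWeights. Same-numbered arrays of different groups had deviations correlated from -0.57 to 0.49, above 0.1 in 9 of 45 pairs, so the number was not taken as a pairing. Between air and hypoxia of 1 genotype all 9 same-numbered pairs were above 0 (0.05 to 0.49) and 6 above 0.1, against -0.42 to 0.19 for the 18 pairs of other numbers, and 14 of 18 arrays were closest to their own number, a hint from the data and not from the design. With the replicate number as a block, OSM34 in amiRAP2.2-12 air stayed at -3.13 (adjusted p = 0.266), and the counts of probe sets past the threshold in air were 75 for HA-RAP2.12 against wild type, 0 for amiRAP2.2-12 against wild type and 21 for HA-RAP2.12 against amiRAP2.2-12, where the fit without it gave 122, 3 and 42. A block within each genotype, chosen after seeing the data, can be fitted for hypoxia against air only. It gave 4846 rather than 4951 probe sets and 8 rather than 11 related genes in wild type, and 0 rather than 40 probe sets for the response of amiRAP2.2-12 against that of wild type. Calls lost under it were AT1G19320 (adjusted p = 0.119), AT5G24620 (0.0576) and AT1G26270 (0.0532) in wild type, AT5G24620 (0.0846) and AT2G04400 (0.0961) in HA-RAP2.12, and AT1G64460 (0.0636) and GRX480 (0.0801) in amiRAP2.2-12.

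In HA-RAP2.12 against wild type in air the 122 probe sets became 199 after dim probe sets were filtered, 700 with arrayWeights and 617 without the 4 arrays that deviate together, and 35 to 343 with single arrays left out. The related genes past the threshold there were 2, not 0, with arrayWeights and without the 4 arrays, and 0 to 1 with single arrays left out. In amiRAP2.2-12 against wild type in air the 3 probe sets became 21 after median centring, 38 with the filter, 209 with arrayWeights and 56 without the 4 arrays, and 0 to 378 with single arrays left out (378 without amiRAP2.2-12 air replicate 3), and related genes 0 to 2. Between the lines in air the 42 became 66 with arrayWeights, 3 with only the arrays compared and 21 to 331 with single arrays left out, and related genes 0 to 3. Under hypoxia HA-RAP2.12 against wild type gave 3926 probe sets rather than 1063 with arrayWeights and 411 to 1657 with single arrays left out, with 8 related genes rather than 4 with arrayWeights, 1 with only the arrays compared and 1 to 5 with single arrays left out. amiRAP2.2-12 against wild type gave 516 rather than 323 with the filter, 2400 with arrayWeights, 10 with only the arrays compared and 105 to 1021 with single arrays left out, with 4 related genes rather than 1 with arrayWeights, 0 with only the arrays compared, 2 without the 4 arrays and 1 to 2 with single arrays left out. The wild type hypoxia response gave 3904 to 5669 rather than 4951 probe sets and 6 to 12 rather than 11 related genes with single arrays left out. The cause of these shifts was not tested. Median centring moved array medians by up to 0.142. Levels at or near the floor limit AT5G24240 outside wild type hypoxia, AT1G26390 at its shared value of 2.504, and OSM34 in amiRAP2.2-12.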

Other observations

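Among named genes other than OSM34 and AT5G24240, the widest separation of wild type hypoxia from the other 15 arrays was in AT2G37750 (gap 1.13, rank 4), followed by AT4G16260 (gap 1.02, rank 6), a gene of the glucan-cleaving glycosyl hydrolase family 17, and AT4G30470 (gap 1.00, rank 8). These 3 were chosen after their values were seen, and the gap carries no test. AT2G37750 and AT4G30470 are also among the genes most like AT1G26390 by correlation.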
